A study of Mus musculus with 4 samples.

Results

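The T-box genes Tbx1, Tbx2, Tbx3, Tbx4, Tbx5, Tbx6, Tbx15, Tbx18, Tbx19 and Tbx20 were described in the frontonasal prominence (FNP), the part of the embryonic face that forms the forehead, the bridge of the nose and the nasal tip. All 10 genes were taken by symbol from a table of 33708 genes on 19 autosomes, whatever their values. The table came from RNA-seq of FNP dissected from 4 FVB/NJ mouse embryos at E10.5, all with 29 somites. Of these, 2 were Smchd1+/+ (WT, labeled as 1 female and 1 male) and 2 were Smchd1MommeD43/MommeD43 (MD43, both labeled male). MommeD43 is a missense allele of Smchd1 that came from a chemical (ENU) mutagenesis screen and was carried through the germ line, so every cell of the MD43 embryos had it. The SMCHD1 protein sits on chromatin and helps to keep genes silent, and human variants of it can cause loss of the nose. The allele lies in a mapped interval of chromosome 17 that also holds other, non-coding variants, which travel with it. WT replicate 2 and MD43 replicate 2 shared a mother, and the replicate 1 embryos had other mothers. The sexes were not checked here, and WT replicate 2 is named a female in another of the study's records. If so, sex and genotype cannot be told apart.

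T-box genes encode transcription factors that share a DNA-binding domain, the T-box, which recognizes a short sequence and can activate or repress nearby genes. Members act as switches of tissue identity and of growth in the embryo, and many tissues use several of them in adjoining or overlapping territories. In the head, Tbx15 and Tbx18 mark mesenchyme, Tbx2 and Tbx3 are made in the developing eye and facial tissue, and Tbx1 shapes the pharyngeal arches. Tbx22, the X-linked member needed for the palate, was not analysed here because the table holds autosomes.

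The table gives 1 value per genotype, the mean log2 RPKM of its 2 libraries, where RPKM is reads per kilobase of exon, scaled to the number of reads in the library. No test over embryos could be fitted, and each difference below is a description with a 95% interval for read counting alone, at the smallest counting error that the reads allow. Differences are log2 values of MD43 minus WT. A gene was called past the fold when it differed by at least 1.5-fold and had at least 10 reads in a genotype, taken as the geometric mean of its 2 libraries. The geometric-mean library depth, recovered from the table, came to 22328791 (MD43) and 16055882 (WT) reads. Smchd1 itself was at 9.84 RPKM in MD43 and 9.93 RPKM in WT, which a missense allele need not change and which therefore does not check the labels. The facial mesenchyme markers were present, led by Msx1 with a log2 RPKM of 5.28 in WT. None of 6 limb markers reached 10 reads in a genotype, and the most abundant of them, Hand2, had a log2 RPKM of -4.81 in WT. Heart muscle and paraxial mesoderm markers had also been planned as ones that the FNP should lack. Of these, 2 of 7 and 5 of 7 reached 10 reads, among them Pax3 with a log2 RPKM of 1.91 in WT. The check on absent tissues was therefore mixed.

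Reads of the T-box genes could be told apart. The longest stretch shared by transcripts of any 2 members was between 11 and 32 bases over all 45 pairs (median 17), and none reached the read length of 75 bases. The sister genes Tbx15 and Tbx18 had 68.1% identical bases over 1698 aligned coding bases, with 23 bases as their longest shared stretch. Their most alike ungapped coding window of 120 bases lies in exon 4 of each gene, at chr3:99314745-99314864 on the plus strand for Tbx15 and at chr9:87724353-87724472 on the minus strand for Tbx18 (GRCm38, GENCODE M21). It is shown because the main result rests on reads of these genes being kept apart, and capitals mark the 22 bases that differ, with 98 identical.
Tbx15: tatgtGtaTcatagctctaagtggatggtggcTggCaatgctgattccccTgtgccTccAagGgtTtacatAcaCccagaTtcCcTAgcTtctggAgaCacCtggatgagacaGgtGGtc
Tbx18: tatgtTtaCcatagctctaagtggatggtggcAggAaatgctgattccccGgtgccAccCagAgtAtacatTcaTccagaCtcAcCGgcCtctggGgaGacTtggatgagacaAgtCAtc

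The T-box genes spanned a wide range of levels in WT. Tbx2, a repressor of growth-arrest genes, was the most abundant at 9.64 RPKM, higher than 65.9% of the 15377 genes that passed the filter on reads. Tbx15 followed at 3.38 RPKM, Tbx18 at 2.61 RPKM and Tbx3 at 2.07 RPKM. Each of these 4 differed from the next by more than counting error. Tbx6 (0.359 RPKM) and Tbx1 (0.283 RPKM) were lower still and did not differ from each other beyond counting error. Tbx20, Tbx4 and Tbx5 were at or under 0.0456 RPKM, with neighbors in this order within counting error. No read of Tbx19 was found in any library, and 3 reads per library would have been 0.0585 RPKM in WT and 0.0421 RPKM in MD43.

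The order differed in MD43. Tbx2 again led at 10.55 RPKM, but Tbx3 came next at 2.03 RPKM, above Tbx15 at 1.43 RPKM and Tbx18 at 1.09 RPKM, each step beyond counting error. Thus Tbx3 had the lowest level of the 4 abundant members in WT and the second level in MD43, while its own value hardly moved.

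**Figure D1:**
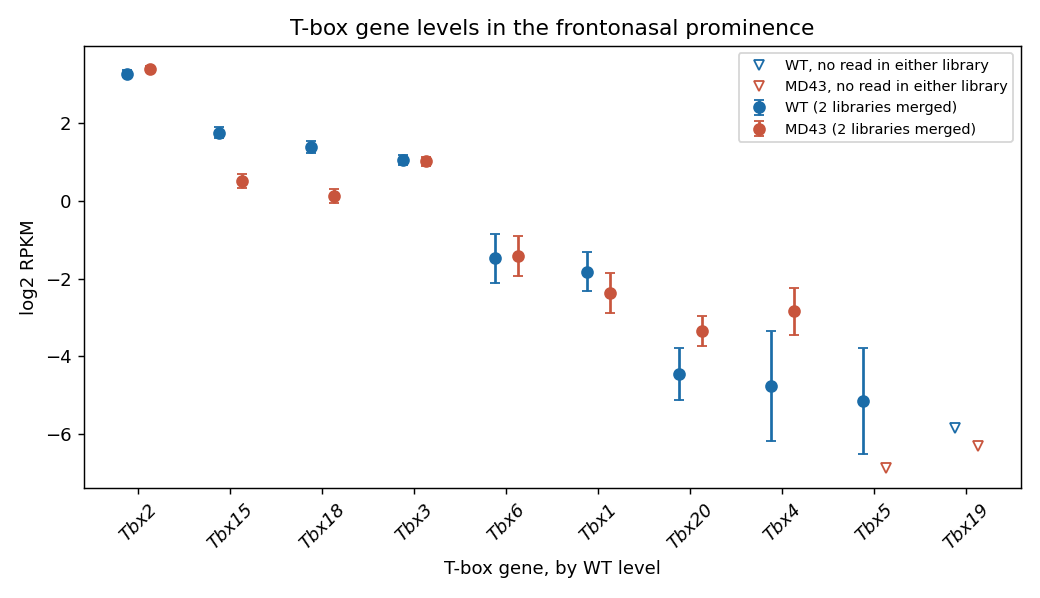
Level of each T-box gene (log2 RPKM) in WT (blue) and MD43 (red), each point the authors' merge of 2 libraries, with bars of the 95% counting interval; open triangles are genotypes without a read, drawn where the table lists them, and the WT value of Tbx5 rests on 1 library. Tbx15 and Tbx18 are the abundant members whose intervals do not meet.

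Tbx15 and Tbx18 were lower in MD43 by nearly the same factor. Both belong to the Tbx1 subfamily. Tbx15 is known for skull, limb skeleton and skin patterning, and Tbx18 for somites, the ureter, the outer layer of the heart and pericytes. Tbx15 (ENSMUSG00000027868, chr3:99240381-99354259, plus strand) was covered by 203 WT and 119 MD43 reads, so that 3.38 RPKM stood against 1.43 RPKM. Its difference was -1.24 ± 0.12 (counting SE), which is 2.37-fold (95% counting interval 2.02 to 2.78). Tbx18 (ENSMUSG00000032419, chr9:87702800-87731260, minus strand) was covered by 198 WT and 115 MD43 reads, or 2.61 RPKM against 1.09 RPKM. Its difference was -1.26 ± 0.12 (counting SE), or 2.39-fold (2.03 to 2.81). The intervals of the levels did not meet for either gene. The difference of Tbx15 exceeded that of Tbx18 by 0.01, with a counting interval of -0.32 to 0.34. Tbx15 stayed above Tbx18 by 0.37 on the log2 scale in WT and by 0.38 in MD43.

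These 2 of the 8 members that passed the filter on reads were past the fold in the lower direction, where 6.43% of all 15377 genes that passed it were. They were also the 2 lower by at least 2-fold, where 2.47% of genes were. Where both genotypes had to reach 10 reads, they were 2 of 6 members, against 5.51% of genes. Among the 4 members with at least 100 reads, Tbx2, Tbx3, Tbx15 and Tbx18, the same 2 were past the fold downward, against 2.17% of 11350 genes, and none was past it upward, against 1.01%. A difference at least as far below 0 as that of Tbx15 was found for 41 of these 11350 genes (0.361%), Tbx15 included, and for 38 (0.335%) in the case of Tbx18. The members were proposed with earlier results of these data known, so these shares give a place among the genes and no support.

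**Figure D2:**
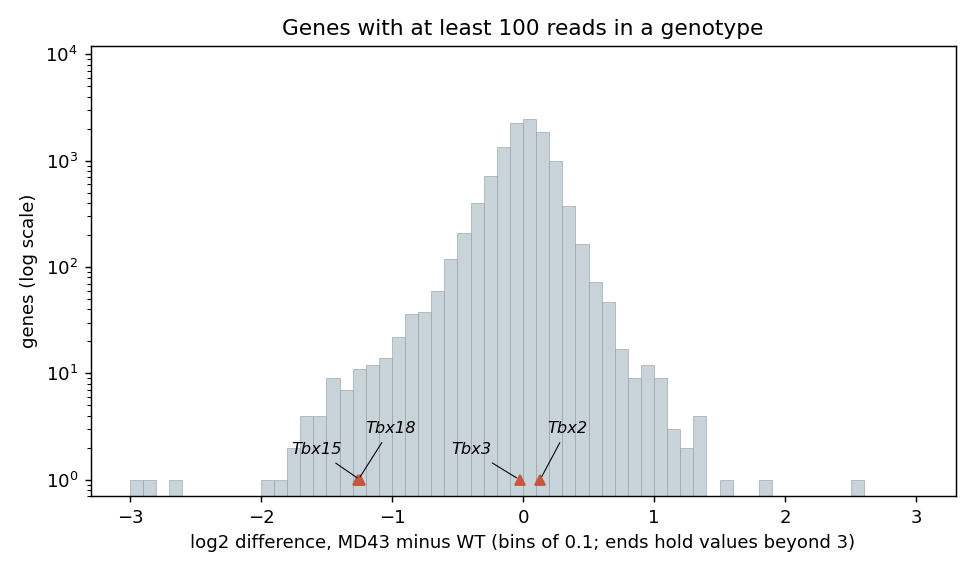
Number of genes (log axis) among those reaching 100 reads in either genotype, by their log2 difference, MD43 minus WT, in bins of 0.1, with triangles at the 4 T-box members of that depth. Tbx15 (-1.24) and Tbx18 (-1.26) lie in the thin lower tail, while Tbx3 (-0.03) and Tbx2 (0.13) lie near the peak.

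The merged values hide the spread between embryos, but part of it could be recovered. Since a merged value fixes the product of the read counts of its 2 libraries, the whole-number factors of that product list the possible pairs of counts. Pairs with a read ratio of up to 4 were kept. The same factors over all genes gave about 27489966 reads for the deeper and 18136614 for the shallower MD43 library, and 19093769 and 13501333 reads for the WT libraries. Which embryo is the deeper library is not known. This step was chosen after the data had been seen.

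Tbx15 had 182 and 227 reads in the WT libraries, the only pair possible. If the deeper library held the 227, the WT embryos were at 3.17 and 3.60 RPKM, and otherwise at 2.54 and 4.49 RPKM. In MD43 the reads were 73 and 195, or 65 and 219. The closest that these allow is 1.89 RPKM in the deeper and 1.07 RPKM in the shallower library. The MD43 embryos therefore differed by at least 1.76-fold from each other in Tbx15, while the WT embryos may have differed by as little as 1.13-fold. Of 780 genes with as many possible pairs and a product within 4 times that of Tbx15, 3 (0.385%), Tbx15 included, had a smallest MD43 spread this large. Both MD43 embryos lay below both WT embryos in 5 of the 8 ways to assign the counts to libraries. They overlapped with WT in the other 3, in which the MD43 embryos differ by 4.05-fold or more.

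The counts of Tbx18 were less fixed, with 6 possible pairs in each genotype. The closest pairs were 102 and 130 reads in MD43 (1.19 and 1.002 RPKM) and 153 and 256 reads in WT (2.40 and 2.84 RPKM). Among similar genes with as many pairs, few had a smallest spread this large. They were 5 of 111 in MD43 (4.5%) and 12 of 142 in WT (8.45%), Tbx18 included. With the closest pairs of Tbx18 the genotypes lay apart, and they did in 81 of all 144 assignments. For both genes the separation of genotypes is therefore possible but not fixed by the table. How often other genes lie apart in this way was not counted. Such counts of assignments, here and below, therefore set no gene apart from the rest.

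**Figure D3:**
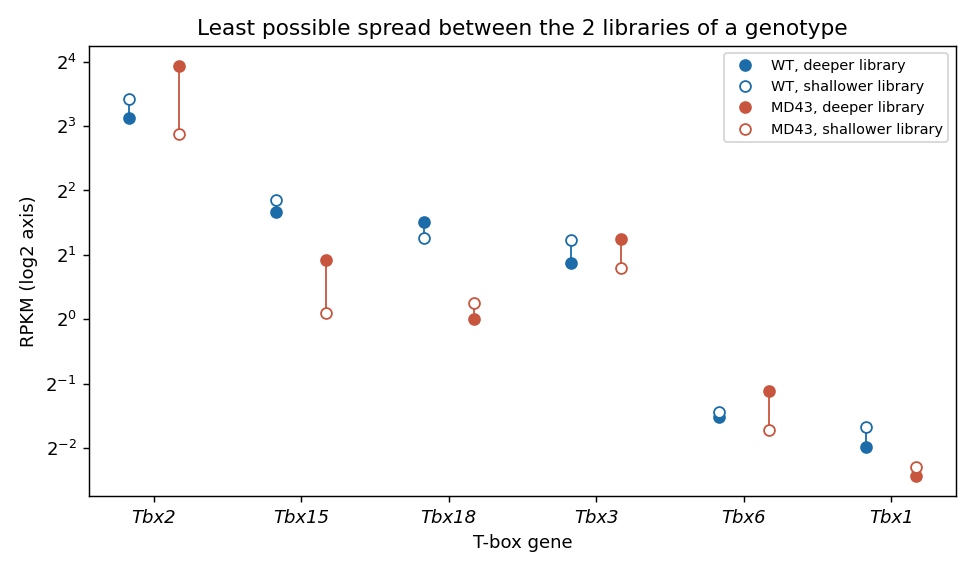
RPKM (log2 axis) of the 2 libraries of each genotype for 6 T-box genes, under the assignment of counts that brings the libraries closest together; filled points are the deeper and open points the shallower library. Tbx2 (15.2 and 7.33 RPKM) and Tbx15 (1.89 and 1.07 RPKM) show the wide gaps between MD43 embryos.

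Tbx2 and Tbx3 encode repressors of the Tbx2 subfamily that hold back cell cycle inhibitors and bound tissue territories. As merged values, neither was past the fold. Tbx2 (chr11:85832551-85841948) was covered by 854 MD43 and 561 WT reads, with 10.55 against 9.64 RPKM and a difference of 0.13 ± 0.06 (counting SE). Tbx3 (chr5:119670669-119684724) had 300 and 220 reads, with 2.03 against 2.07 RPKM and a difference of -0.03 ± 0.09. The difference of Tbx15 was farther below 0 than that of Tbx2 by 1.37 (counting interval 1.12 to 1.63) and than that of Tbx3 by 1.22 (0.93 to 1.51).

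The near-equal means of Tbx2 joined unlike MD43 embryos. The product for MD43 allows 1 pair, 482 and 1513 reads, a ratio of 3.14 where the depths differ by 1.52. The embryos were then at 15.2 and 7.33 RPKM, 2.07-fold apart, or farther if the shallower library held the larger count. In WT the closest pair was 522 and 603 reads, at 10.7 and 8.71 RPKM, within the MD43 values, and the genotypes overlapped in all 8 assignments. Of 612 genes with a single pair and a similar product in MD43, 2 (0.327%), Tbx2 included, had a spread this large, and their median was 1.08-fold. Products as large as this one come less close to whole numbers, as 58.4% in MD43 lay within 0.1 of one and 92.2% within 0.25. For Tbx3, the MD43 pair of 208 and 433 reads gave 1.73 and 2.38 RPKM, at least 1.37-fold apart, and 5.07% of 1005 similar genes were at least as far apart. The closest WT pair, 209 and 231 reads, gave 2.34 and 1.83 RPKM. A value of 0.13 or -0.03 thus says little of how stable Tbx2 and Tbx3 were from embryo to embryo.

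Tbx4 and Tbx5, the other genes of that subfamily, are the hindlimb and forelimb members, and Tbx5 also acts in the heart. Tbx4 had 10.6 reads in MD43 and 2 in WT, or 0.139 and 0.0366 RPKM. The possible counts were 8 and 14 or 7 and 16 in MD43 and 2 and 2 or 1 and 4 in WT. The ratio is 3.80-fold (counting interval 1.31 to 11.1) on few reads, and 2.54-fold with WT set to 3 reads. Tbx4 passed the filter through MD43 alone. Tbx5 had 5 reads in 1 WT library and none in the other WT library or in MD43. No fold is given for it, since both genotypes were under 3 reads per library, which would have been 0.0400 RPKM in WT and 0.0287 RPKM in MD43.

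Tbx20, which is needed for heart muscle, was higher in MD43, at 0.0985 against 0.0456 RPKM. The counts were fixed at 24 and 29 in MD43 and 7 and 11 in WT, and the genotypes did not overlap in any of 4 assignments. The difference was 1.11 ± 0.40 (counting SE), or 2.16-fold (1.26 to 3.71). Tbx20 too passed the filter through MD43 alone, which favors a higher value in MD43. The share of all genes without overlap was not counted. Tbx4 and Tbx20 were the 2 members of 8 past the fold in the higher direction, where 4.24% of all genes were, and both were past 2-fold, where 1.64% were. With at least 10 reads asked of both genotypes, 0 of 6 members and 2.15% of genes were past the fold upward.

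Tbx1, the gene of the pharyngeal arches and outflow tract, had 15 and 17 reads in WT, and 13 and 18 or 9 and 26 in MD43. Its level was 0.283 RPKM in WT and 0.195 RPKM in MD43, a difference of -0.54 ± 0.36 (counting SE) with an interval of -1.25 to 0.18. Tbx6, a gene of the presomitic mesoderm, had 10 and 23 reads in MD43, and 9 and 12 or 6 and 18 in WT. It was at 0.376 RPKM in MD43 and 0.359 RPKM in WT, a difference of 0.07 ± 0.41 with an interval of -0.74 to 0.87. A difference within these intervals was not detectable at this depth. Tbx19, the pituitary member that turns on Pomc, had no reads, as given above.

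**Figure D4:**
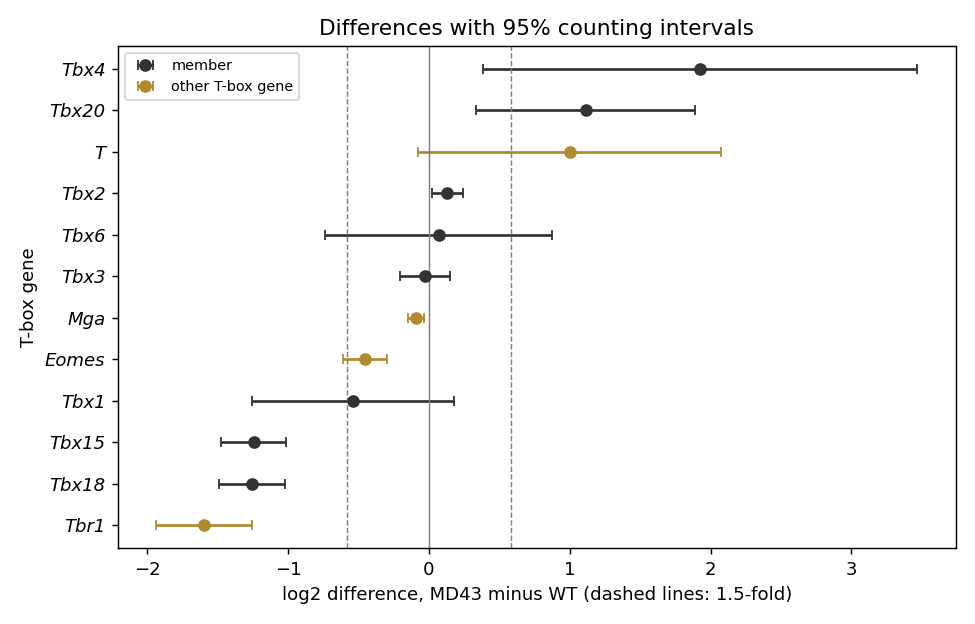
Log2 difference, MD43 minus WT, of the 12 T-box genes that passed the filter on reads (black, members; gold, other T-box genes), with 95% counting intervals and dashed lines at 1.5-fold. Tbx15, Tbx18 and Tbr1 lie below the lower line with their whole intervals, and no gene lies above the upper line with its whole interval.

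The other T-box genes of the table were described for comparison. Tbr1, a gene of forebrain neurons, was covered by 50.3 MD43 and 109 WT reads, or 0.411 against 1.24 RPKM, a difference of -1.60 ± 0.17 (counting SE). Its MD43 counts were 46 and 55, and the genotypes lay apart in 23 of 24 assignments, with no such count over all genes. Eomes, its relative in the same subfamily, was at 3.58 against 4.89 RPKM (-0.45 ± 0.08), which is within 1.5-fold. The forebrain markers were lower beside these genes, 7 of 9 with 4 past the fold and a median of -0.45, and their summed level was 119 RPKM in MD43 and 130 RPKM in WT. No forebrain marker was without reads, and the part of this tissue in the values of Tbr1 and Eomes was not tested. T, the founding member of the family and a notochord gene, had 13.0 and 4.69 reads (0.999 ± 0.549), and Tbx21, a gene of T cells, had 7.07 and 1.73 reads. Mga, a large protein that also joins the Myc network, was nearly level at -0.09 ± 0.03, and Tbx10 had no reads.

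Tissue composition was then described, since in bulk tissue fewer cells of a type and less RNA per cell cannot be told apart. Of 12 facial mesenchyme markers, 9 were lower in MD43, among them Twist2 past the fold (-0.71 ± 0.16), with a median of -0.22. The median of all 15377 genes that passed the filter was 0.01, with 7870 higher and 7507 lower. Past the fold were 4.24% of them upward and 6.43% downward. The summed level of the facial mesenchyme markers was 160 RPKM in MD43 and 165 RPKM in WT, and none was without reads. Relative to the facial mesenchyme median, Tbx15 was 2.04-fold lower and Tbx18 2.06-fold lower. Of 10 surface ectoderm markers, 9 were higher, 7 of them past the fold, with a median of 0.65 and a summed level of 193 against 125 RPKM. The leading ones by size were Krt5 (1.17 ± 0.28), Cldn6 (0.87 ± 0.05), Cdh1 (0.73 ± 0.05) and Krt8 (0.70 ± 0.04), while the most abundant in WT, Krt18, differed by 0.49. The part of this shift in the lower Tbx15 and Tbx18 was not tested.

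Other head tissues differed as well. Optic vesicle markers were lower in 8 of 9 cases, 5 past the fold, with a median of -0.68. Rax, Pax2 and Mitf were lower, with differences of -2.17, -1.20 and -1.01, and the most abundant marker, Lhx2, was higher by 0.49. Periocular mesenchyme markers had a median of 0.02 over 5 genes, in which Aldh1a1 (-2.84 ± 0.31) and Lmx1b (-0.73 ± 0.09) were past the fold and Sfrp1 was the most abundant (0.57). Of 6 pericyte and smooth muscle markers, the cells for which Tbx18 is known, 4 were lower with a median of -0.14. Des alone was past the fold, upward (0.64 ± 0.20), and Notch3 was the most abundant (0.17). In the forebrain list the members farthest down were Otp (-1.57), Sim1 (-1.48), Dbx1 (-1.40) and Otx2 (-0.62), the last of which was also the most abundant.

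Reads were uneven over the lists of tissues for which Tbx4, Tbx6, Tbx19 and Tbx20 are known. Limb and heart muscle markers had few. Of 7 paraxial mesoderm markers 5 had enough reads, led by Pax3 (598 MD43 and 373 WT reads). The pituitary list was led by Pitx1 (636 and 221 reads). Of the pituitary markers, 4 had enough reads, and 3 of these passed the filter through MD43 alone, which favors a higher value in MD43. They were Lhx3 (14.5 against 2.32 reads), Hesx1 (12.4 against 2.32 reads) and Lhx4 (13.96 against 7.07 reads). Pitx1, with enough reads in both genotypes, was higher by 1.05 ± 0.08. The median of the list was 1.496 with the filter and 0.51 over all 7 markers without it. Of 7 heart muscle markers 2 had enough reads, of which Myh7, again counted through MD43 alone, was past the fold (13.0 against 2.85 reads) and Tnni3, the most abundant, was not (-0.10). The summed level of this list was 1.61 RPKM in MD43 and 1.30 RPKM in WT. Paraxial mesoderm markers held Tcf15 (-1.34 ± 0.32) and Meox2 (1.05 ± 0.63, enough reads in MD43 alone) past the fold and Pax3 as the most abundant (0.20). Of the pharyngeal markers, Foxa2 had 19.8 MD43 and 4.24 WT reads, enough in MD43 alone, and Sox17, the most abundant, differed by -0.13. All 5 red blood cell markers were higher, with a median of 0.84, among them Hbb-bh1 (1.04), Klf1 (0.88), Hbb-y (0.84) and Hba-x (0.79). Their summed level was 5810 RPKM in MD43 and 3056 RPKM in WT, and the part of it in the T-box values was not tested.

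**Figure D5:**
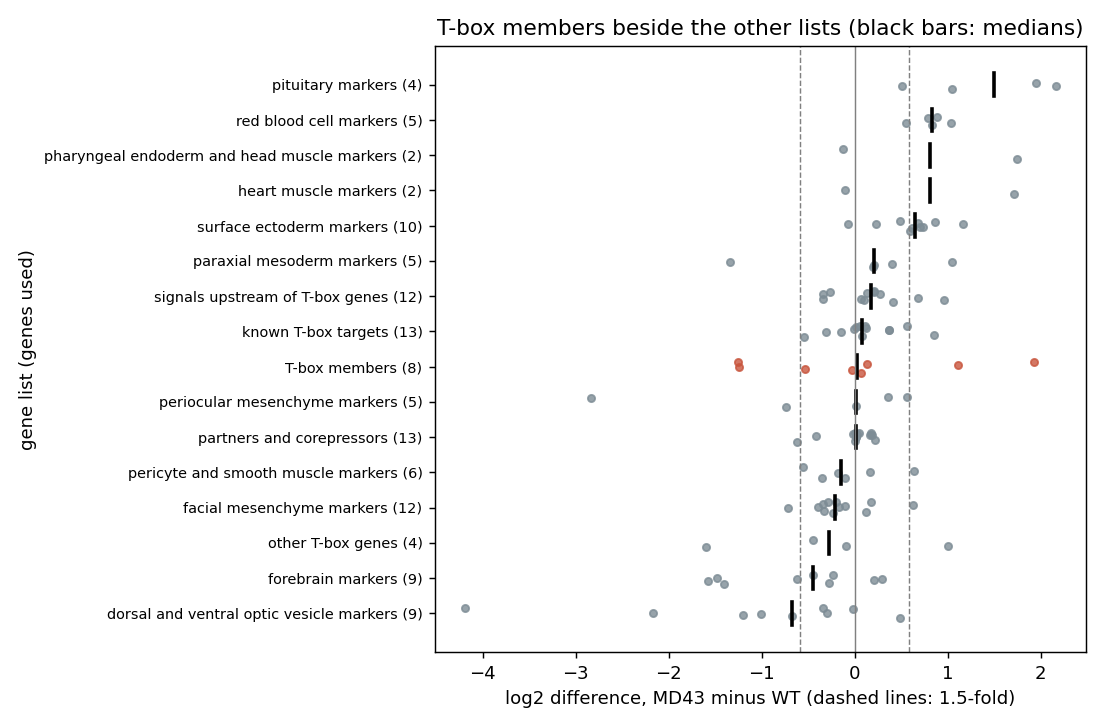
Log2 difference, MD43 minus WT, of each gene that passed the filter on reads, by gene list (number of genes in brackets), with the median as a black bar and dashed lines at 1.5-fold; T-box members are in red. The T-box median is near 0 (0.02) because the members lie on both sides, from -1.26 to 1.93.

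Signals, partners and targets of T-box factors were examined next. Of 12 upstream signals with enough reads, 9 were higher and 3 lower, with a median of 0.17. Among all 15377 genes with enough reads, 7870 were higher and 7507 lower. Aldh1a3, which makes retinoic acid, was higher by 0.96 ± 0.03 and Cyp26c1, which breaks it down, by 0.69 ± 0.53 on 11.8 and 5.29 reads. Cyp26c1 passed the filter through MD43 alone, which favors a higher value in MD43. None of the 12 was lower by 1.5-fold. The partners and corepressors stayed close to level, with a median of 0.01 over 13 genes. The Groucho gene Tle2 was the exception past the fold (-0.62 ± 0.29, 23.2 and 25.6 reads). Of 13 known targets 9 were higher, with a median of 0.08 and only Gja5, a gap junction gene, past the fold (0.85 ± 0.30).

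The neighbors of the T-box genes were described as well. Within 250 kb of a member lay 106 rows, 59 of them with enough reads. Of these, 4 were past the fold in each direction, and the median was 0.06. Over all 15377 genes that passed the filter, 6.43% were past the fold downward and 4.24% upward. The counts of neighbors are too small to be told from these shares. Wars2, which lies 1.20 kb from Tbx15 and is a tRNA ligase of mitochondria, differed by -0.03 ± 0.07, beside -1.24 for Tbx15. No neighbor of Tbx18 had enough reads, and D030062O11Rik, which overlaps Tbx18 on the other strand, had 9.54 and 7.48 reads. Gm43120, which overlaps Tbx15 on the other strand, had none. At Tbx3 the overlapping antisense gene Tbx3os1 had 9.90 MD43 and 14.4 WT reads (-1.02 ± 0.42). The libraries were stranded, but whether counting used strand is not stated, so reads of such overlapping genes could be shared. Tbx4 lies 44.5 kb from Tbx2, and their differences were 1.93 and 0.13. The neighbors farthest up besides Tbx4 were Apobr (22.0 and 4 reads) and Cdiptos (11.0 and 2.45 reads), both near Tbx6. Like Tbx4, both had enough reads in MD43 alone.

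RefSeq promoter windows (250 bases before to 50 after the start, GRCm38.p6) were matched for 6 of the 10 members, Tbx1 with 2 windows. The window of Tbx18, the member farthest down that was matched, is shown at chr9:87731211-87731510 on the minus strand, with its 15 CpG sites in capitals.
Tbx18 promoter: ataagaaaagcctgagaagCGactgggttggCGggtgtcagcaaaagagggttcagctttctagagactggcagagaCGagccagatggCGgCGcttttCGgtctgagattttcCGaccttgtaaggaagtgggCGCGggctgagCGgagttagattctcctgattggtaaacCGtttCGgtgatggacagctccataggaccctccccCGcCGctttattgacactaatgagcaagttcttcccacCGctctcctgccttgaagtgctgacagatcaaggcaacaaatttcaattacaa
This window had more CpG sites than 65.4% of 32851 promoter windows, whose median was 7. Tbx20 and the first window of Tbx1 had 26 sites each, Tbx4 had 8, and Tbx6 and Tbx19 had 7 each. The T-box recognition letters GGTGTGA, searched on both strands, were in none of the 7 windows and in 3.98% of all windows. The longer form AGGTGTGA, which contains the former, was in none of the 7 and in 1.28% of all. The TATA box letters TATAAA were in the windows of Tbx4 and Tbx6 and in 13.6% of all. These matches describe the windows alone.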

How the data were processed

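Poly(A) RNA (100 ng of total RNA) of the FNP of 4 embryos was sequenced by the authors as stranded 75-base single-end libraries. Per the labels and methods, reads were trimmed with Trim Galore 0.4.4, mapped with HISAT2 2.0.5 to GRCm38 and quantified in SeqMonk. The deposited values are log2 RPKM, which the authors scaled to library depth and exon length and merged into 1 column for each genotype. The table also holds the authors' log2 fold change, mean and FDR from an edgeR-based test, which were not used.

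The table was joined to GENCODE M21 on symbol and coordinates (33101 of 33708 rows). The 12862 rows (38.2%) at the most frequent difference were taken as genes without reads, with 0.9 reads given to an empty library. The value of every other gene then gave the product of the reads of its 2 libraries, and 99.9% of products under 1000 were whole, or 0.9 times a whole number, within 0.01. Counting errors come from the geometric mean and are lower limits that cover counting alone. Possible pairs of counts were the factors of products under 1000000 that lay within 0.1 of a whole number. The depth ratio within a genotype was the center of a folded t distribution (3 degrees of freedom) fitted to genes with a single pair, 1955 in MD43 and 2110 in WT.

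The planned comparison per library could not be made. The members and gene lists were chosen with earlier results of these data known. The named genes are the 10 members, the other T-box genes, up to 4 genes per list and among the neighbors with the largest difference past 1.5-fold, and the most abundant gene of each marker list. A few genes that this rule names are not reported here. Alternatives were pseudocounts of 0.1 and 1 RPKM, centering, floors, filters, a 2-fold limit and a 100 kb window. A minimum of 100 reads and values relative to facial mesenchyme were added after seeing the data. Python 3.11.15, numpy 2.4.6, pandas 2.3.3 and scipy 1.17.1 were used.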

Additional observations from a re-analysis of the deposited data

How the results depend on the processing

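No paired analysis was possible because libraries were merged into 1 value per genotype, and for the same reason no library could be left out in turn. The count of T-box members lower past the fold was 2 under 6 of 7 alternatives and 3 without a filter on reads, where Tbx5, with 5 reads in 1 WT library and none elsewhere, joined Tbx15 and Tbx18. The count of members higher past the fold was 2 as given and fell to 0 with at least 10 reads in both genotypes, with at least 100 reads in a genotype or with a pseudocount of 1 RPKM, each of which removes or damps genes of few reads, and was 2 under the other 4. The pseudocount of 1 RPKM brought Tbx15 to -0.85, Tbx18 to -0.79, Tbx4 to 0.14 and Tbx20 to 0.07, since it understates changes of low genes. Relative to the facial mesenchyme median, Tbx2 was at 0.35 and Tbx3 at 0.19 in place of -0.03. Centering moved all genes by 0.01. Of 74 alternative values of list medians, 72 moved by less than the quartile range of the list. That range is wide for lists of few genes, so this count does not show that their medians were stable. Among the 72, the heart muscle median went from 0.81 to 0.01 with a pseudocount of 1 RPKM. The periocular median went from 0.02 to -0.55 without a filter. That is the value of Foxd3, with 0.9 MD43 and 0.949 WT reads, where 0.9 stands for none. Genes without reads in any library lie at -0.48, a value set by depth, so -0.55 does not describe periocular genes. The pharyngeal median went from 0.81, over 2 genes, to -0.13 with at least 50 reads, the value of Sox17 alone. The 2 values that moved farther were the pituitary median, 0.29 with a pseudocount of 1 RPKM, and the pharyngeal median, -0.29 without a filter on reads. Without the filter the pharyngeal list takes in Pax1 and Tcf21, which had no reads, and its median is the value of Msc (4.24 MD43 and 3.74 WT reads). Of the 27 neighbors within 100 kb with enough reads, 1 was higher and 4 were lower past the fold, against 4.24% and 6.43% of all genes. Embryo number and depth limit all of these values. With 2 embryos merged per genotype no difference was checked over replicates here, and the authors' edgeR-based FDR was not used. Members under 30 reads have counting intervals wider than 1.5-fold.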
